A study of Homo sapiens with 6 samples.

Results

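Matrix metalloproteinases (MMPs) and the tissue inhibitors of metalloproteinases (TIMPs) were followed in RNA-seq libraries labelled H1650, an established human lung adenocarcinoma cell line. The members were 9 genes chosen by name: MMP1, MMP2, MMP7, MMP14, MMP15, MMP24, TIMP1, TIMP2 and TIMP3. Of these, 8 were among the 15897 genes in the deposited table, and MMP7 was not listed. The series holds 6 libraries, 3 of H1650 labelled control and wild type, and 3 of H1650 labelled shSETD2. In the latter, SETD2, a histone methyltransferase, was to be silenced by short hairpin RNA. The study describes stable cell lines made with lentivirus and 3 hairpin constructs. In H1650 it reports less SETD2 by real-time qPCR and western blotting, less of the histone mark SETD2 sets, and similar efficiency of the constructs. The labels do not say which construct, or which control vector, a library carries. The labels also do not say whether libraries of a group came from separate cultures, so the p-values measure only the spread between these libraries, which may be technical. Expression is given as FPKM (fragments scaled to gene length and to the mapped total), which allows levels to be compared between genes.

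MMPs are zinc-dependent proteases that cut collagens, laminins and other proteins of the extracellular matrix. They are made as inactive precursors, and some are secreted while the membrane-type enzymes MMP14, MMP15 and MMP24 stay at the cell surface. TIMPs bind the active site of MMPs and block it. TIMP2 also forms a complex with MMP14 that helps to activate the precursor of MMP2, TIMP1 is a weak inhibitor of MMP14, and TIMP3 is held in the matrix and also blocks proteases of the ADAM family. In carcinoma cells these genes are best known for their part in invasion.

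SETD2 was examined first, as a check of the labels. Control libraries 1 to 3 had an FPKM of 18.0, 10.2 and 17.6 for this gene, and shSETD2 libraries 1 to 3 had 8.97, 8.09 and 12.2. The groups overlapped, because control library 2 lay below shSETD2 library 3. The difference in log2(FPKM + 1) was -0.58 (standard error 0.240, adjusted p = 0.0641 by limma). It was -0.83 (adjusted p = 0.00666) without control library 2 and -0.73 (adjusted p = 0.0420) without shSETD2 library 3. Leaving out any of the other 4 libraries gave -0.53 to -0.45 (adjusted p = 0.149 to 0.181), and median ratio scaling gave -0.25 (adjusted p = 0.377). The groups are therefore named by their labels throughout. On log2(FPKM + 1), the correlation over listed genes (Pearson's r, with genes not being replicates) was 0.985 to 0.991 for pairs of libraries with the same label and 0.756 to 0.761 for pairs with different labels. Of 6 lung epithelial markers, only NKX2-1 was listed, at an FPKM of 1.44 to 1.80 in control libraries and at 0 in all shSETD2 libraries. Among 8 epithelial markers KRT19 was not listed, EPCAM was under 1 in all libraries, and CDH1 had a mean FPKM of 1.27 in control and 0.0120 in shSETD2 libraries. The summed FPKM of the 7 listed epithelial markers was 14.1 to 16.0 in control and 402.1 to 454.5 in shSETD2 libraries, carried by the keratins KRT7, KRT8 and KRT18. The 6 embryonic kidney markers summed to 20.7 to 22.3 in control and 17.95 to 20.7 in shSETD2 libraries, with 4 at a mean of 1 or more in each group. Of 8 fibroblast markers 4 were listed, summing to 4.04 to 4.54 in control and 0.292 to 0.340 in shSETD2 libraries. Of 7 leukocyte markers CD68 and CD14 were listed, summing to 1.33 to 1.62 in control and 1.91 to 2.24 in shSETD2 libraries, while the defining marker PTPRC was not. The part of these differences between the groups in the results that follow was not tested. Whether both groups are of the same cell line was not tested either. The labels could not be checked further, so every value below compares libraries as labelled, and a difference in SETD2 and any other difference between the groups cannot be told apart.

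The bases upstream of the members whose levels differed most, MMP14, TIMP1 and TIMP3, are shown with those of MMP7, the member that was not listed. They are the 250 bases before the start of each gene, 5′ to 3′ on the gene's strand, from RefSeq on GRCh38.p14. Of the 9 members, 6 had an entry, and MMP1, MMP2 and TIMP2 had none. Capitals mark matches on either strand to the GC box GGGCGG, the AP-1 site TGANTCA and the TATA box TATAAA, of which none overlapped another.
MMP14 (plus strand, chr14:22836335-22836584): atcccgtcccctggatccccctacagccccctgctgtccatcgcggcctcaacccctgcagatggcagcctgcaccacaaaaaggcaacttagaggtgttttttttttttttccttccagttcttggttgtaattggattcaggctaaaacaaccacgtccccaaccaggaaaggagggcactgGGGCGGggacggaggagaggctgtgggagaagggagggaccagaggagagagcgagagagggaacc
TIMP1 (plus strand, chrX:47582186-47582435): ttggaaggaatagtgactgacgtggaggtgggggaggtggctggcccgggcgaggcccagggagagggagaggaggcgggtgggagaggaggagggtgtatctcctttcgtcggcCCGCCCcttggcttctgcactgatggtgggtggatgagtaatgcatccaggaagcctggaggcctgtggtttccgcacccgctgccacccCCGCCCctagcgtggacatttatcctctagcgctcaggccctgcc
TIMP3 (plus strand, chr22:32801455-32801704): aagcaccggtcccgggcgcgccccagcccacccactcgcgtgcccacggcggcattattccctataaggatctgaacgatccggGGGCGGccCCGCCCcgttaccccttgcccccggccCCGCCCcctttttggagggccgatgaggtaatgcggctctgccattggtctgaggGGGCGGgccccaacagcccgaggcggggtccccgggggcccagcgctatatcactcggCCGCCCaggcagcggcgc
MMP7 (minus strand, chr11:102530748-102530997): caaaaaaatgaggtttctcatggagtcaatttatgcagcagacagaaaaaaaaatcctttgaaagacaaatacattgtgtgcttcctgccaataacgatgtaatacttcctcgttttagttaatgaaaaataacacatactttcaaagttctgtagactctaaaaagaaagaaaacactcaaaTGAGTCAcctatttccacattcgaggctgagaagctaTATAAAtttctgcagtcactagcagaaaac

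The GC box was found 1 time upstream of MMP14, 2 times upstream of TIMP1 and 5 times upstream of TIMP3, while 42.6% of the 35116 promoters in the RefSeq table hold at least 1 in the same window. MMP15 had 5 and MMP24 had 3. MMP7 was the only one of the 6 with a match to the AP-1 site, present in 6.57% of all promoters, or to the TATA box, present in 10.7%. CpG pairs numbered 7 for MMP14, 12 for TIMP1, 26 for TIMP3 and 3 for MMP7, against a median of 11 over all promoters. These letters describe the windows only, since binding and methylation were not measured.

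Among the proteases, MMP14 and MMP1 were higher in the shSETD2 libraries, and MMP2 and MMP15 were modestly lower. Among the inhibitors, TIMP1 was higher, TIMP3 was listed at 0 in every shSETD2 library, and TIMP2 did not separate the groups. The test was limma's on log2(FPKM + 1), run on the 14068 genes whose FPKM averaged 0.5 or more, 7 members among them, with p-values adjusted by Benjamini-Hochberg over this whole set. At an adjusted p under 0.05, 3 members were higher in shSETD2 libraries, where 26.8% of all genes tested were higher. Another 3 were lower, against 51.8% of all genes tested, and 78.6% of all genes differed in either direction. The same 6 members had no overlap between the groups, as held for 80.9% of all genes tested, with shSETD2 above control for 27.9% and control above shSETD2 for 53%. MMP1 and TIMP3 exceeded the filter only through the group in which they were high, so the member counts are a description and no p-value is given for a gene with a mean FPKM under 0.5 in either group. An exact permutation test of 3 against 3 libraries cannot give a p-value under 0.1. The median difference of all genes tested was -0.29, and it was -0.01 after scaling each library by its median ratio to the geometric mean, so small falls depend on the scaling. In RNA from whole cultures, fewer cells of a type and less RNA per cell cannot be told apart.

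**Figure D1:**
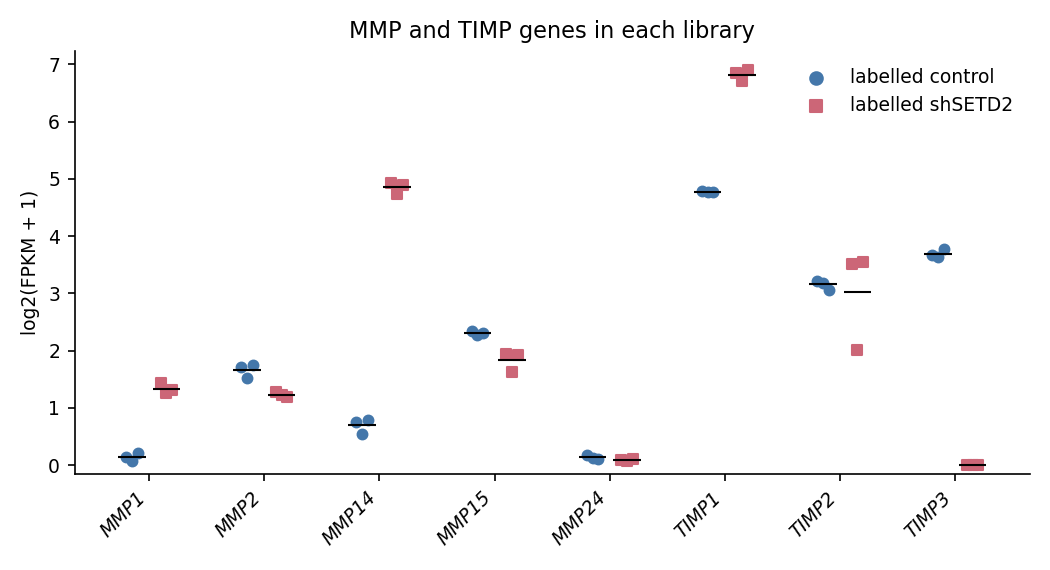
Expression of the 8 listed members as log2(FPKM + 1) (y axis), with 1 point per library, circles for libraries labelled control and squares for those labelled shSETD2, and a black line at the mean of each 3. MMP14 and TIMP1 sit higher in all shSETD2 libraries, TIMP3 is at 0 there, and 1 of the 3 shSETD2 values of TIMP2 lies apart from the other two.

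MMP14 (ENSG00000157227.12_2), which encodes a collagenase anchored in the plasma membrane, spans chr14:23305766-23318236 (plus strand, GRCh37, as for all positions that follow). Control libraries 1 to 3 had an FPKM of 0.691, 0.465 and 0.727, and shSETD2 libraries 1 to 3 had 29.3, 25.6 and 28.8. Every shSETD2 library lay far above every control library, and the spread within a group was small beside the gap. The mean FPKM was 0.628 ± 0.142 (SD, n = 3) with the control label and 27.9 ± 1.98 (SD, n = 3) with the shSETD2 label, a ratio of means of 44.4. The difference in log2(FPKM + 1) was 4.15 (standard error 0.087, adjusted p = 1.07e-07 from limma), above that of 99.2% of all genes tested. Over 16 alternative settings the difference lay between 4.08 and 5.47. No other annotated gene overlaps MMP14.

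MMP1 (ENSG00000196611.4_2), the interstitial collagenase, spans chr11:102660651-102668891 (minus strand). Its FPKM was 0.101, 0.0466 and 0.156 in the control libraries and 1.70, 1.38 and 1.49 in the shSETD2 libraries. The groups did not overlap, but the shSETD2 level was still low beside that of MMP14. The difference in log2(FPKM + 1) was 1.20 (standard error 0.073). It reached 3.92 with a pseudocount of 0.01, because the control values were close to 0. With a pseudocount of 0.1 it was 3.05, above the 2.08 of TIMP1, so the order of these members depends on the pseudocount. In the annotation, 223 exonic bases of MMP1 are shared with the pseudogene WTAPP1 on the opposite strand. The libraries came from a stranded kit, but whether the quantification used strand is not stated.

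MMP2 (ENSG00000087245.12_3), gelatinase A, spans chr16:55423612-55540603 (plus strand). Its FPKM was 2.26, 1.86 and 2.37 in the control libraries and 1.42, 1.34 and 1.29 in the shSETD2 libraries. Every shSETD2 value was below every control value, with a difference in log2(FPKM + 1) of -0.43 (standard error 0.078, adjusted p = 0.00231 from limma). This was -0.14 relative to the median of all genes, and after quantile normalization it was -0.04 (adjusted p = 0.650), so the call was lost there. With median ratio scaling it was -0.20 and only just past the threshold (adjusted p = 0.0489 from limma). In the annotation, 174 exonic bases of MMP2 are shared with an unnamed gene on the same strand (ENSG00000279030).

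MMP15 (ENSG00000102996.4_2), a membrane-type enzyme like MMP14, spans chr16:58059470-58080805 (plus strand). Its FPKM was 4.05, 3.82 and 3.96 in the control libraries and 2.83, 2.09 and 2.79 in the shSETD2 libraries. The groups did not overlap, and the difference in log2(FPKM + 1) was -0.48 (standard error 0.095, adjusted p = 0.00338 from limma). The call was lost with median ratio scaling (-0.21, adjusted p = 0.0990) and with quantile normalization (-0.20, adjusted p = 0.0825). Thus MMP14 and MMP15, both membrane-type enzymes, had opposite signs, and only that of MMP14 passed the test under every scaling tried.

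MMP24 (ENSG00000125966.9_2), a membrane-type enzyme known from the nervous system, spans chr20:33814457-33864803 (plus strand). Its FPKM was 0.133, 0.0911 and 0.0795 in the control libraries and 0.0677, 0.0457 and 0.0803 in the shSETD2 libraries. These values overlapped and were too low for the filter, so MMP24 was not tested. The gene listed as MMP24-AS1 covers it on the opposite strand and shares 806 exonic bases with it in the annotation. MMP24-AS1 was at a mean FPKM of 4.42 in control and 6.22 in shSETD2 libraries (adjusted p = 0.00132 from limma). EIF6, a ribosome assembly factor beside them, was at a mean FPKM of 24.96 and 75.2, also past the threshold.

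TIMP1 (ENSG00000102265.11_2), an inhibitor of most secreted MMPs, spans chrX:47441712-47446188 (plus strand). Its FPKM was 26.5, 26.2 and 26.2 in the control libraries and 114.1, 103.4 and 117.8 in the shSETD2 libraries. It was the highest of the members in both groups, and the groups were far apart. The ratio of mean FPKM was 4.25, and the difference in log2(FPKM + 1) was 2.04 (standard error 0.053, adjusted p = 2.53e-07 from limma), above that of 95.9% of all genes tested. It lay between 1.85 and 2.39 over 16 alternative settings. TIMP1 lies within SYN1, which is on the opposite strand, shares no exonic base with it and was not listed.

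TIMP3 (ENSG00000100234.11_2), the matrix-bound inhibitor, spans chr22:33197687-33259030 (plus strand). Control libraries 1 to 3 had an FPKM of 11.7, 11.4 and 12.7, the second highest level among the members, and it was listed at 0 in all 3 shSETD2 libraries. No fold change is given against a group listed at 0. In the same way, 25 genes were at an FPKM of 10 or more in every control library and at 0 in every shSETD2 library, and 26 genes the reverse. Of 10 common reference genes, 0 were at 0 in any library.

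SYN3, a synapsin gene, holds TIMP3 within its span on the opposite strand, with 0 exonic bases shared in the annotation. SYN3 had an FPKM of 0.708, 1.02 and 0.979 with the control label and 0, 0.00795 and 0 with the shSETD2 label. It was too low to be tested. Every control value was above every shSETD2 value, as for TIMP3 and as held for 53% of all genes tested.

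TIMP2 (ENSG00000035862.12_3), the partner of MMP14 in activating MMP2, spans chr17:76849059-76921469 (minus strand). Its FPKM was 8.28, 8.08 and 7.38 in the control libraries and 10.4, 3.01 and 10.7 in the shSETD2 libraries. In shSETD2 library 2 the gene was below all other libraries, at 28.45% of the mean of shSETD2 libraries 1 and 3, which were above all control libraries. The difference in log2(FPKM + 1) was -0.13 (standard error 0.412, adjusted p = 0.779 from limma). Its sign changed to 0.18 with median ratio scaling (adjusted p = 0.716), and without shSETD2 library 2 it was 0.38 (adjusted p = 0.00285).

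The library with the low TIMP2 value was compared with the others for genes that stood as low. Of 10952 genes tested with an FPKM over 1 in both other shSETD2 libraries, 36, TIMP2 included, were as low as TIMP2 or lower in library 2 relative to these. The same measure gave fewer genes in shSETD2 libraries 1 (18) and 3 (24). In control libraries 1 to 3, where more genes passed the limit of 1 FPKM, it gave 30, 30 and 43. CEP295NL, which shares 224 exonic bases and the strand with TIMP2 in the annotation, was at 0.223, 0.194 and 0.287 FPKM in shSETD2 libraries 1 to 3 and at 0.521, 0.647 and 0.394 in the control libraries. An unnamed long non-coding RNA on the opposite strand (ENSG00000267601) shares 367 exonic bases with TIMP2. USP36, a deubiquitinase beside TIMP2, was at a mean FPKM of 10.2 in control and 7.70 in shSETD2 libraries (adjusted p = 0.0143 from limma).

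**Figure D2:**
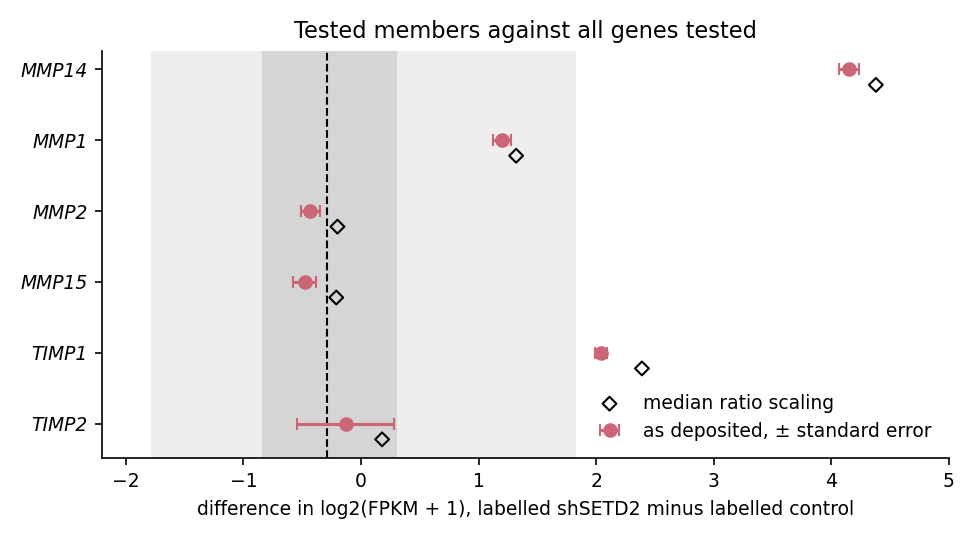
Difference in log2(FPKM + 1) between libraries labelled shSETD2 and control (x axis) for the 6 tested members not listed at 0 in a group. Filled circles with standard errors stand for the values as deposited and open diamonds for median ratio scaling. MMP1 was close to 0 in the control libraries. The dashed line marks the median of all 14068 genes tested (-0.29), dark grey their 25th to 75th percentiles (-0.83 to 0.30) and light grey their 5th to 95th percentiles (-1.78 to 1.82), and MMP14 and TIMP1 lie above the light grey range.

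Since FPKM is scaled to gene length, the levels of the members can be ordered within a group. In the control libraries the order by mean FPKM was TIMP1 (26.3), TIMP3 (11.9), TIMP2 (7.91), MMP15 (3.94), MMP2 (2.16) and MMP14 (0.628), followed by MMP24 and MMP1, whose ranges overlapped. In the shSETD2 libraries the order was TIMP1 (111.8), MMP14 (27.9), TIMP2 (8.04), MMP15 (2.57), MMP1 (1.53), MMP2 (1.35), MMP24 (0.0646) and TIMP3, at 0. There the ranges of MMP1 and MMP2 overlapped. MMP14 thus moved from the sixth to the second place, and the other neighbours in both orders did not overlap in range.

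The make-up of each class followed from these levels. MMP14 made up 8.98% ± 1.38 (SD, n = 3) of the summed MMP FPKM with the control label and 83.5% ± 0.562 (SD, n = 3) with the shSETD2 label, while the share of MMP15 was 57.0% ± 3.38 (SD, n = 3) and 7.65% ± 0.698 (SD, n = 3). The sum of the 5 listed MMP members was 6.28 to 7.29 FPKM in control and 30.5 to 35.3 FPKM in shSETD2 libraries. TIMP1 held 56.7% to 57.3% of the summed TIMP FPKM in the control libraries and 91.6% to 97.2% in the shSETD2 libraries. The TIMP sum was 45.6 to 46.5 FPKM in control and 106.4 to 128.5 FPKM in shSETD2 libraries. The ratio of MMP14 to TIMP2 FPKM was 0.0834, 0.0576 and 0.0986 in the control libraries and 2.80, 8.52 and 2.70 in the shSETD2 libraries, where the highest ratio is that of the library with low TIMP2. These shares describe RNA, and no protein or activity was measured.

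**Figure D3:**
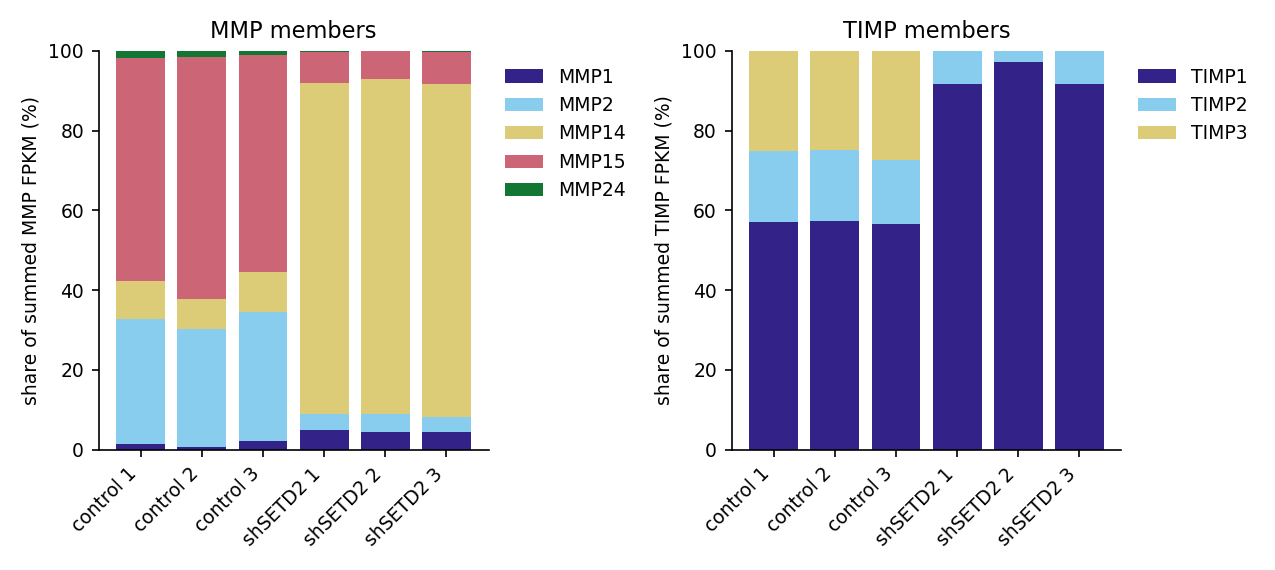
Share of each member in the summed FPKM of the MMP members (left) and the TIMP members (right), in percent (y axis), with 1 bar per library. MMP15 and MMP2 make up most of the MMP sum in control libraries and MMP14 most of it in shSETD2 libraries, and the TIMP3 share of 24.99% to 27.4% in control libraries is 0 in shSETD2 libraries.

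The most similar genes were sought for the members with the largest rise and fall, by Euclidean distance of log2(FPKM + 1) over the 6 libraries. For MMP14 they were GNG11 (distance 0.36), OAS3 (0.39) and HIST1H4I (0.45), with mean FPKM of 0.536, 0.415 and 0.921 in control and 30.0, 26.1 and 26.4 in shSETD2 libraries. For TIMP3 they were DIRAS1 (0.07), FOXF2 (0.11) and SLC35F1 (0.12), with mean FPKM of 11.7, 11.8 and 11.95 in control libraries. DIRAS1 and SLC35F1 were at 0 in all shSETD2 libraries, and FOXF2 was at 0, 0.0525 and 0. With 2 groups these distances reflect little beyond the level in each group.

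The rest of the family was looked up as a list of 18 genes, of which 5 were listed. MMP8, MMP9, MMP10, MMP12, MMP13, MMP19, MMP20, MMP21, MMP23B, MMP25, MMP26, MMP27 and MMP28 were not, so the gelatinase MMP9 has no value here. Of the 3 genes tested, 1 was higher and 2 were lower, and their median difference was -0.29, the same as that of all genes tested. Over all genes tested, 26.8% were higher and 51.8% lower. MMP17, a membrane enzyme with a lipid anchor, was at 1.12, 1.45 and 1.52 FPKM in control and 5.41, 4.98 and 4.69 FPKM in shSETD2 libraries, a difference in log2(FPKM + 1) of 1.35 (standard error 0.088, adjusted p = 1.40e-05 from limma). MMP11, stromelysin-3, was at 1.02, 0.904 and 0.863 FPKM in control and 0.104, 0.0773 and 0.1203 FPKM in shSETD2 libraries, a difference of -0.81, and it exceeded the filter only through the control libraries. MMP16, another membrane-type enzyme, had a mean FPKM of 2.11 in control and 1.55 in shSETD2 libraries, and its difference of -0.29 (adjusted p = 0.00222) equalled the median of all genes. TIMP4 was listed at 0, 0.167 and 0 in the control libraries and at 0 in the shSETD2 libraries.

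MMP1 belongs to a cluster of MMP genes on chromosome 11, where MMP3 was the only other enzyme listed. MMP3, stromelysin-1, had an FPKM of 0.461, 0.647 and 0.859 with the shSETD2 label and was listed at 0 in each library with the control label, too low for the filter. Of 15 genes of the cluster and its flanks 8 were listed and 7 tested. Of the 7, 5 were higher and 2 lower in shSETD2 libraries, beside 26.8% and 51.8% of all genes tested. MMP1 itself is among the 5, and it exceeded the filter only through the shSETD2 libraries, so the counts are a description. The median difference of the 7 was 1.20, which is the value of MMP1, against -0.29 over all genes. On the side of MMP7, BIRC3, an apoptosis inhibitor, had the largest difference, with a mean FPKM of 0.139 in control and 27.9 in shSETD2 libraries, and exceeded the filter only through the latter. YAP1 was at a mean FPKM of 7.65 and 42.3, BIRC2 at 5.15 and 13.9, and TMEM123 at 31.6 and 64.5 in control and shSETD2 libraries, each past the threshold. On the other side the genes moved the opposite way, with DCUN1D5 at 22.6 and 11.9 FPKM and DYNC2H1 at 26.1 and 6.08 FPKM, both past the threshold.

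**Figure D4:**
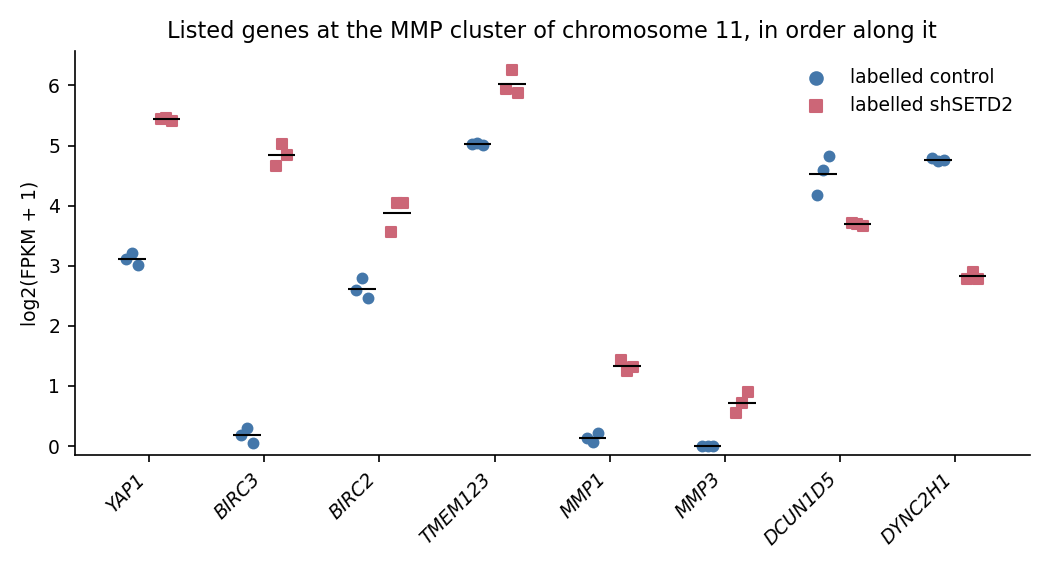
Expression as log2(FPKM + 1) (y axis) of the 8 listed genes at the MMP cluster of chromosome 11, in their order along the chromosome, with 1 point per library, circles for control and squares for shSETD2 labels, and black lines at the means. The 6 genes from YAP1 to MMP3 sit higher in shSETD2 libraries and DCUN1D5 and DYNC2H1 sit lower.

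Counts over the gene lists that follow include genes that exceeded the filter only through 1 group, and they are descriptions too. They are to be read beside the shares over all genes tested, 26.8% higher and 51.8% lower. Regulators of MMP activity were described with a list of 15 genes, of which 12 were tested, 6 were higher and 4 lower in shSETD2 libraries, and the median difference was 0.23 against -0.29 over all genes. PLAU, the urokinase that makes plasmin, an activator of several MMP precursors, had the largest rise, from a mean FPKM of 1.23 ± 0.0377 (SD, n = 3) to 382.6 ± 13.2 (SD, n = 3) (adjusted p = 1.95e-09 from limma). PCSK6, a convertase of the furin family, had the most negative difference, with 3.98, 4.05 and 4.11 FPKM in control and 0, 0 and 0.0102 FPKM in shSETD2 libraries, and exceeded the filter only through the former. The next 4 genes were picked after their values were seen, for their known roles. FURIN, which cuts the precursor of MMP14, was at a mean FPKM of 13.3 and 16.9 in control and shSETD2 libraries (adjusted p = 0.00355). TFPI2, a matrix inhibitor of plasmin, was at a mean FPKM of 0.942 and 124.4 (adjusted p = 4.60e-09). RECK, a membrane-bound inhibitor of MMPs, was at a mean FPKM of 2.56 and 1.49 (adjusted p = 2.47e-04). LCN2, which binds MMP9, had an FPKM of 12.4, 11.1 and 13.03 in the shSETD2 libraries, and no control library listed it above 0.

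TIMPs, TIMP3 above all, also inhibit some ADAM and ADAMTS proteases. Of 14 genes of these families 9 were tested, with 6 higher, 1 lower and a median difference of 0.49. Among all genes tested 26.8% were higher and 51.8% lower, with a median of -0.29. ADAMTS5, an aggrecan-cutting enzyme, was at 0, 0.0203 and 0 FPKM in control and at 2.50, 2.58 and 2.53 FPKM in shSETD2 libraries, and exceeded the filter only through the latter. ADAM17, a target of TIMP3 that releases TNF from cells, was the gene that was lower, at a mean FPKM of 12.7 ± 0.697 (SD, n = 3) with the control label and 7.39 ± 0.627 (SD, n = 3) with the shSETD2 label (adjusted p = 1.19e-04).

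Matrix proteins cut by MMPs formed a list of 18 genes, of which 14 were tested. Of the 14, 8 were higher and 5 lower, beside 26.8% and 51.8% of all genes tested. Their median difference was 0.87, against -0.29 over all genes. COL5A1, a chain of a fibrillar collagen, was at 3.42, 3.85 and 3.70 FPKM in control and 0, 0.00518 and 0 FPKM in shSETD2 libraries. Members of the list differed in both directions. COL1A1, picked after its values were seen, is a substrate of MMP1 and MMP14 that also stands in the fibroblast list, and was at a mean FPKM of 2.78 in control and 0.269 in shSETD2 libraries. Both collagens are among the 5 lower genes, not the 8 higher ones, and exceeded the filter only through the control libraries. The other tested collagens, also named after their values were seen, went both ways. In control and shSETD2 libraries the mean FPKM was 6.71 and 20.2 for COL4A1, 12.78 and 36.65 for COL4A2, and 12.5 and 27.4 for COL18A1. It was 6.36 and 4.14 for COL4A5, and 4.24 and 0.240 for COL4A6.

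AP-1 and ETS factors, which are known to act at MMP promoters, were all tested. Of the 13 genes, 11 were higher and 1 lower in shSETD2 libraries, beside 26.8% and 51.8% of all genes tested. Their median difference was 2.54, against -0.29 over all genes. ETS1 was at a mean FPKM of 0.237 in control and 66.5 in shSETD2 libraries, and exceeded the filter only through the latter. JUN fell from 171.4 ± 1.98 (SD, n = 3) to 82.4 ± 2.23 (SD, n = 3) FPKM (adjusted p = 4.95e-07 from limma). The other gene, ETS2, had a difference of -0.04 (adjusted p = 0.480). Whether these factors bear on the MMP and TIMP genes was not tested.

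**Figure D5:**
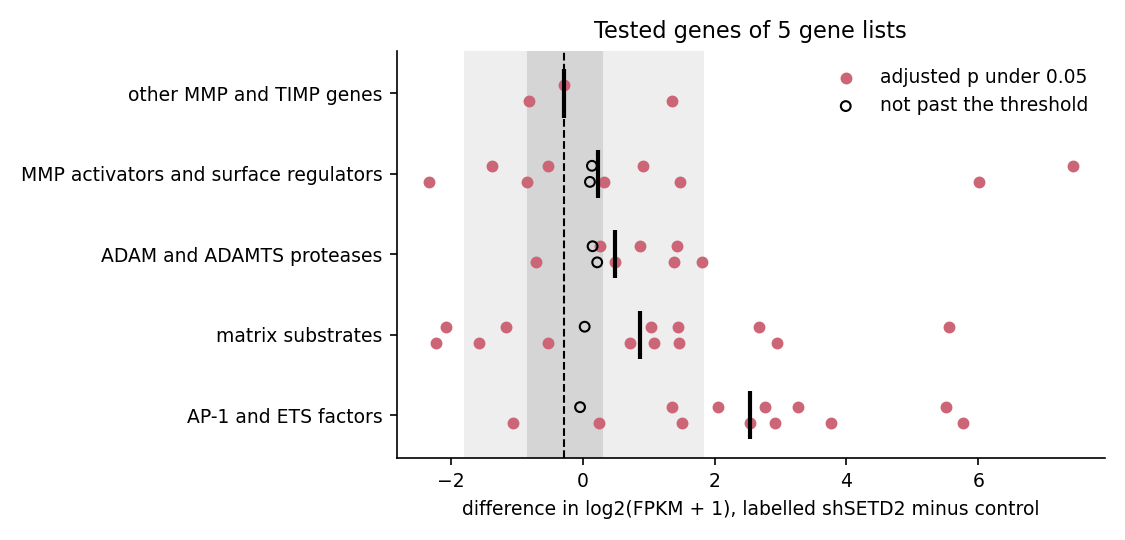
Difference in log2(FPKM + 1) between libraries labelled shSETD2 and control (x axis) for the tested genes of 5 lists, with filled points for an adjusted p under 0.05, open points otherwise and a black bar at the median of each list. The dashed line and grey ranges stand for the median and percentiles of all genes tested as in the plot of the members, LCN2 is not drawn because it was listed at 0 in the control libraries, and the median of AP-1 and ETS factors (2.54) lies to the right of the light grey range.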

How the data were processed

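Total RNA of H1650 cells was sequenced from a stranded kit. The authors mapped reads to hg19 with HISAT2, quantified genes with Ballgown and deposited FPKM for each gene and library. Tool versions, the annotation release and the filter on listed genes are not given in the sources used here. A second deposited table holds the authors' own comparison (fold changes, p-values, q-values) and was not used. Low FPKM values showed no common step (at most 2.11% of genes under 0.2 FPKM shared a ratio between 2 libraries within 0.1%), so depth and counting error are unknown.

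Genes whose FPKM averaged 0.5 or more were fitted on log2(FPKM + 1), which understates changes of low genes, with limma 3.58.1 (intensity trend) in R 4.3.3, with Benjamini-Hochberg adjustment and a threshold of 0.05. Tested on simulated data of 14068 genes for this comparison, the fit called 98 of 103 changed genes over 5 FPKM and 7 of 13868 unchanged genes. In the simulation only 200 genes were changed and the noise was independent between libraries. It therefore says little about data in which 78.6% of genes differed. Gene positions are those of the deposited table, and overlaps come from GENCODE v44lift37 for the same build. Members and lists were chosen with earlier results of these data known. Members, SETD2, listed MMP, TIMP and cluster genes, overlapping genes, and the largest rise and fall past the threshold of each list were named, with the 3 nearest genes of 2 members. A gene that this rule names among the matrix proteins is not reported here. Marker lists are described by genes listed, genes at a mean FPKM of 1 or more, and summed FPKM. Plots and tables used Python 3.11.15, pandas 2.3.3 and matplotlib 3.10.9. The alternatives tried are named under the dependence on processing.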

Additional observations from a re-analysis of the deposited data

How the results depend on the processing

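The choices varied were the pseudocount (0.1, 0.01), the filter (none, or a mean FPKM of at least 5), the scaling (median ratio, quantile, upper quartile), the spread (without the trend, or from each gene alone), a block by replicate number, and leaving out each of the 6 libraries. MMP14 and TIMP1 kept their direction and call under each alternative in which they were tested. The difference of TIMP2 changed sign to 0.18 with median ratio scaling and to 0.38 without shSETD2 replicate 2, and ranged from -0.39 to 0.38 with a library left out. For SETD2 it ranged from -0.83 to -0.45 with a library left out, it was -0.25 (adjusted p = 0.377) with median ratio scaling, and with the replicate block it was -0.58 with an adjusted p of 0.0156, so its call depends on the setting. With a mean FPKM of at least 5, fewer genes are tested, and 2401 were higher and 3246 lower, where 3774 and 7283 were with the filter of 0.5. Median ratio scaling raised the share of higher genes among all calls from 34.1% to 49.6%, and the cause was not tested. Of the members, 1 was lower with a mean FPKM of at least 5 (4 tested) and 1 with quantile normalization. Of the other MMP and TIMP genes, 2 were higher with no filter, 1 was lower with median ratio scaling and 1 with quantile normalization, and none could be tested at a mean FPKM of at least 5. At that filter 0 MMP regulators and 1 matrix gene were lower, and with no filter 2 ADAM genes were lower. The replicate block changed no member's call and gave 10976 calls over all genes, against 11057. Deviations of libraries with the same number correlated across genes at r = -0.024, 0.018 and -0.008, which gave no sign of pairing by number. Whether libraries of the same number were handled together is not stated in the labels. Depth is unknown from FPKM, which limits statements on genes listed at or near 0.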
